A study of Drosophila melanogaster with 2 samples.

Results

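The genes described here encode the nuclear subunits of the respiratory chain and of ATP synthase, with their named relatives, in the fruit fly Drosophila melanogaster. They were chosen by name alone: every nuclear protein-coding gene of the Ensembl BDGP6 annotation whose symbol begins with ND-, UQCR-, COX, Sdh or ATPsyn, which gave 88 of 13968 protein-coding genes. By prefix, 40 belong to complex I (ND-), 8 to complex II (Sdh), 9 to complex III (UQCR-), 16 to complex IV (COX) and 15 to ATP synthase, also called complex V. The rule also takes in assembly factors that carry such a prefix, such as Sdhaf3, and it leaves out subunits with other names, such as levy, cype, blw and sun.

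The data were ChIP-seq peak lists for CG5953, a protein that the annotation used here gives no function. The flies carried a transgene for CG5953 fused to enhanced green fluorescent protein (eGFP), and an antibody against GFP recovered the fusion protein with its DNA from whole embryos aged 0 to 24 h. There was 1 group, with 2 libraries that the labels call biological replicates, and control libraries were not analysed here. Whole embryos mix all cell types and stages, so a peak cannot be assigned to any of them, and no marker of tissue can be checked in peak lists.

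The respiratory chain passes electrons from NADH and succinate through complexes I to IV to oxygen and pumps protons across the inner mitochondrial membrane, and ATP synthase uses the returning protons to make ATP. Most subunits are encoded in the nucleus and a few in mitochondrial DNA, so cells need the products of both genomes. Drosophila also carries duplicates of many of these genes, and several fly mitochondrial duplicates are known from earlier work for expression in testis.

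The sequences under the summits are shown first because the results rest on where those summits lie. They are 151 bp windows centred on the summit of each peak. The strongest member is shown (ND-ASHI, chrX:6679306-6679456). So are ND-24 (chrX:17632096-17632246) and ND-51 (chr2L:6062795-6062945), genes of the NADH-oxidising module of complex I. The last are the ATP synthase and complex III members whose windows hold the DNA replication-related element (ATPsynE, chr3R:14326915-14327065, and UQCR-14, chrX:16286204-16286354). Each was read from the Release 6 genome (dm6 coordinates), 5′ to 3′ on the member's strand. Lines for ND-ASHI and ND-51 are on the minus strand and the others on the plus strand. Capitals mark a match to a searched motif: TATAAA in ND-ASHI, CAGCTG in ND-51 and TATCGATA in ATPsynE and UQCR-14.
ND-ASHI: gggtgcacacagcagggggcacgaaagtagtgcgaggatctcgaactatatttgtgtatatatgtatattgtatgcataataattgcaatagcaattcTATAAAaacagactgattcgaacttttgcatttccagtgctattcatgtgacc
ND-24: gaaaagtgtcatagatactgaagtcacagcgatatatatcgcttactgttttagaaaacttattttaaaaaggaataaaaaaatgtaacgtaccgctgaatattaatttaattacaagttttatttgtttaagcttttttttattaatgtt
ND-51: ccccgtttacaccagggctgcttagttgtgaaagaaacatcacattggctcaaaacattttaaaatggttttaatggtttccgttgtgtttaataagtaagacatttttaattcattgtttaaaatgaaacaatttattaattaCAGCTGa
ATPsynE: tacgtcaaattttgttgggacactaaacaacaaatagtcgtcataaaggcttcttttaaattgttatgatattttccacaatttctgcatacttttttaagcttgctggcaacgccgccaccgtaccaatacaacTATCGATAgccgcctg
UQCR-14: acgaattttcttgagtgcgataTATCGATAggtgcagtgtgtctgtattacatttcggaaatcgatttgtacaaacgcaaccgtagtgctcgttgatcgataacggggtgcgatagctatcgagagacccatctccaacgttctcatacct

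The GC content of these windows ran from 23.8% at ND-24 and 30.5% at ND-51 through 38.4% at both ND-ASHI and ATPsynE to 44.4% at UQCR-14, against a median of 37.1% over the 3015 conservative summits on the chromosome arms. The word TATCGATA is the DNA replication-related element bound by the factor Dref. It was in 2 of the 10 member windows and in 1.72% of the conservative summit windows. The 10 include 4 members with no conservative peak, UQCR-14 among them, so the sets compared are not alike. TATAAA was also in 2 of the 10 (ND-ASHI and ND-MWFE) against 24.3%, and CAGCTG was in 1 against 7.16%. The other searched words were in none of the 10.

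Peaks of CG5953-eGFP were found at few of the respiratory genes. In the conservative list of 3016 peaks, which combines both libraries, 6 of 88 members had a summit no more than 500 bp from a transcription start site (TSS), or 6.82% (Clopper-Pearson 95% interval 2.54 to 14.3%). Over all nuclear protein-coding genes the share was 11.3%, which lies inside that interval. The 6 were ND-ASHI, ND-24, ND-MWFE and ND-51 of complex I, SdhC of complex II and ATPsynE of ATP synthase. No member of complex III or complex IV was among them.

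The other lists gave shares of the same size. The second list of both libraries, called optimal, had 9 of 88 members (10.2%) against 12.1% of all genes. Replicate 1's own list had 5 members (5.68%) against 8.09%, and replicate 2's own list had 4 (4.55%) against 7.35%. The mean over the replicates was 5.11% ± 0.804 (SD, n = 2), beside 7.72% ± 0.526 for all genes. In each list the member share was numerically below that of all genes and its interval included it. Any of the 4 thresholded lists took in 10 of 88 members, where 13.7% of all genes were in at least 1 of them, and 3 of them, ND-ASHI, ND-24 and ND-MWFE, were in all 4.

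**Figure D1:**
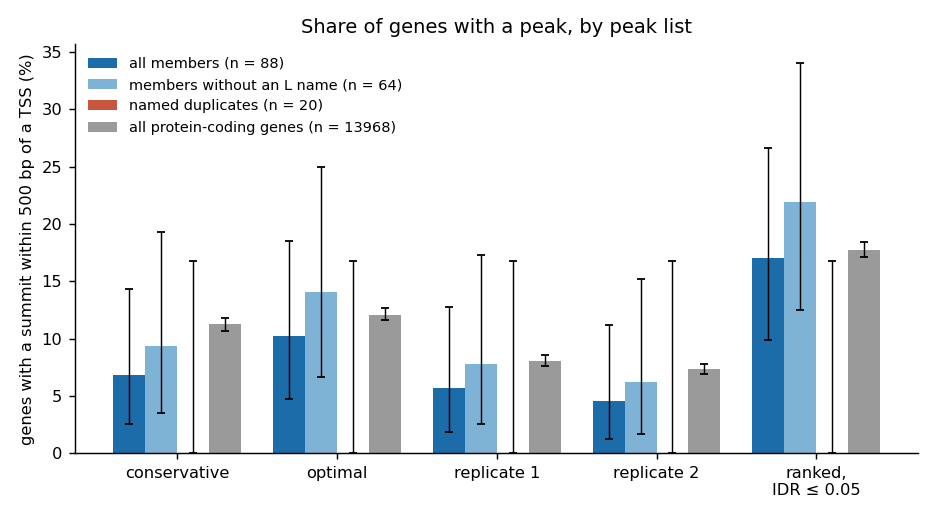
Share of genes with a summit within 500 bp of a TSS (vertical axis, %) in each peak list, for all members, members without an L name, named duplicates and all protein-coding genes. Error bars are Clopper-Pearson 95% intervals over genes, and named duplicates are at 0 in every list shown.

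ND-ASHI (FBgn0029888), an accessory subunit of complex I, had the strongest member peak (X, 6679233 to 6679528). Its signal, the authors' own value per peak with no stated unit, was 109 in replicate 1 and 95.8 in replicate 2 (102 ± 9.26, SD, n = 2) and 206 in the conservative list, where 90.6% of peaks were weaker. Its irreproducible discovery rate (IDR, the authors' measure of how poorly a peak's rank repeats, here between libraries) was 5.33e-05. An IDR from 1 replicate's own list cannot compare the libraries. The summit lay 263 bp upstream of ND-ASHI and 259 bp upstream of Fum1, which runs the other way and encodes fumarase of the citric acid cycle. The peak thus stood in the middle of the interval between a complex I gene and a citric acid cycle gene.

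ND-24 and ND-51, genes of the NADH-oxidising module, each carried a peak. At ND-24 (X, 17632023 to 17632318) the signal was 49.1 in replicate 1 and 59.2 in replicate 2 (54.2 ± 7.19), and 105 in the conservative list, with an IDR of 0.000606. At ND-51 (2L, 6062722 to 6063017), whose product binds NADH and flavin mononucleotide, it was 55.5 and 35.6 (45.6 ± 14), and 95.1 in the conservative list, with an IDR of 0.00139. The ND-51 peak passed the threshold in replicate 1's own list and not in that of replicate 2, and the ND-24 peak passed in both. The ND-24 summit lay 82 bp downstream of its TSS, with corolla, a synaptonemal complex gene, running the other way 124 bp from the summit. The ND-51 summit lay 113 bp upstream, close to midway between ND-51 and CG13994.

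ND-75, the third gene of that module and the one for its large iron-sulfur subunit, differed from both. Its best ranked peak had a signal of 26.1 and an IDR of 0.565. Among the 7 nuclear genes for the core subunits of complex I, a group added after the values were seen, the conservative list held a peak at 2 (ND-24 and ND-51), where all genes had 11.3%. The optimal list held one at 3, where all genes had 12.1%, with ND-23, an iron-sulfur subunit, as the addition. ND-20 had only a weak ranked peak (signal 14.3, IDR 0.508), and ND-30 and ND-49 had none within 500 bp.

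ND-MWFE, another accessory subunit gene of complex I, had a signal of 54.8 in replicate 1 and 44.5 in replicate 2 (49.7 ± 7.24), and 105 in the conservative list. The summit (2R, 13158333 to 13158628) lay 185 bp upstream of ND-MWFE and nearer, at 36 bp, to TppII, which encodes a tripeptidyl peptidase. At ND-23 (3R, 15837365 to 15837660) the signals were 23.9 and 33.5 (28.7 ± 6.74), and 57.9 in the optimal list, and the peak was also in replicate 2's own list. That summit was 396 bp upstream of ND-23 and 94 bp inside spn-E, a germline gene of the piRNA pathway. For both of these peaks the neighbour's TSS was the nearer.

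In complex II, which oxidises succinate and belongs also to the citric acid cycle, SdhC was the member with a thresholded peak. SdhC encodes a membrane anchor subunit. Its signals were 29.4 in replicate 1 and 36.2 in replicate 2 (32.8 ± 4.81), and 66.6 in the conservative list (3R, 11210186 to 11210481; IDR 0.00375). The peak was in neither replicate's own thresholded list, and its summit, 485 bp upstream of SdhC, was 87 bp inside Tctp. SdhA, the flavoprotein subunit gene, came next in the ranked list behind the conservative set, with 27.2 and 25 and an IDR of 0.0149. Its summit was 136 bp downstream of its own TSS. In the ranked list behind the optimal set its IDR was 0.610. The genes of the iron-sulfur subunit SdhB (signal 15.0, IDR 0.511) and of the second anchor SdhD (43.5, IDR 0.188) had weaker ranks behind the conservative set.

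Complex III and complex IV had thresholded peaks in the optimal list and in no conservative list. UQCR-14, a subunit of complex III, had a summit 9 bp upstream of its TSS with signals of 15.3 in replicate 1 and 35.4 in replicate 2, 2.31-fold apart, and 51.8 in the optimal list. It was the member among the 10 whose peak had no other protein-coding TSS within 500 bp. Its IDR was 0.172 in the ranked list behind the conservative set, where replicates are compared, so this call depended on the list.

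The complex IV members were COX5B and COX6B, both nuclear subunits of cytochrome c oxidase. COX5B had 46.3 in replicate 1 and 22.4 in replicate 2, 2.07-fold apart, and its summit was 18 bp from IFT52, an intraflagellar transport gene, and 280 bp from COX5B. COX6B had 21.1 and 33.2, with a summit 78 bp upstream of COX6B and of CG18809 and 18 bp from CG33932 and Rpp20. Both thus lay nearer to a neighbour's TSS, and the COX5B peak was also in replicate 1's own list.

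For ATP synthase, ATPsynE was the member with a thresholded peak (3R, 14326842 to 14327137). Its signals were 35.5 in replicate 1 and 26.1 in replicate 2 (30.8 ± 6.60), and 53.8 in the conservative list, with an IDR of 0.00734. The summit lay 43 bp downstream of ATPsynE and 301 bp upstream of Afti. This peak was in the conservative list and in no other thresholded list. ATPsynbeta, the gene of the catalytic subunit, had no ranked peak within 500 bp.

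**Figure D2:**
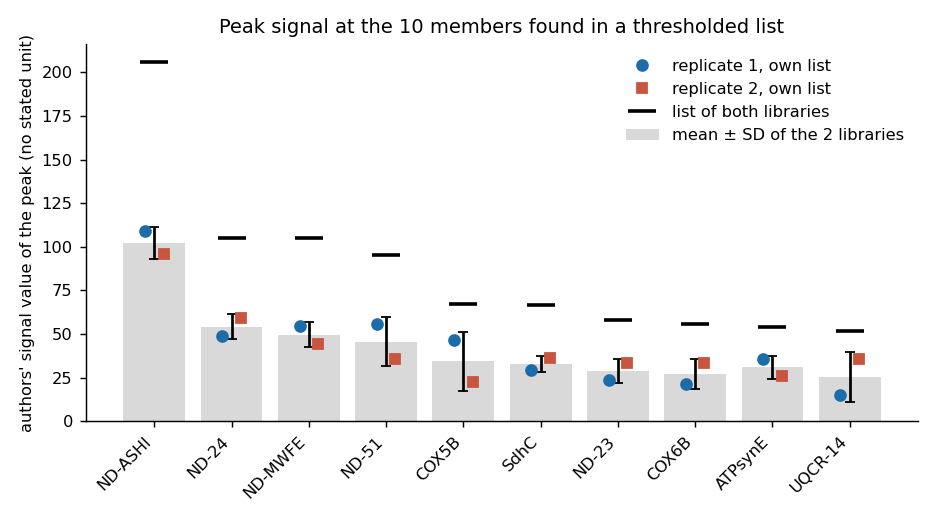
The authors' signal value (vertical axis, no stated unit) of the peak at each of the 10 members found in a thresholded list, in replicate 1, in replicate 2 and in the list of both libraries, with the mean ± SD of the replicates as bars. ND-ASHI is highest in both libraries, and the replicates of COX5B and UQCR-14 differ by more than 2-fold.

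Most of these peaks also lay near the TSS of another gene. Of the 10 members, 9 shared the peak with another protein-coding gene whose TSS lay within 500 bp of the summit, among them all 6 of the conservative list. The member's own TSS was the nearest in 4 of the 10. Counted only for the nearest TSS, the conservative list left 3 members (ND-24, ND-51 and ATPsynE; 3.41%) against 8.58% of all genes. Upstream summits were found at 8 and downstream summits at 2 of the 10. Sharing within 500 bp and the side of the summit were not counted over all genes with a peak. Neither is therefore shown to be particular to the members.

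**Figure D3:**
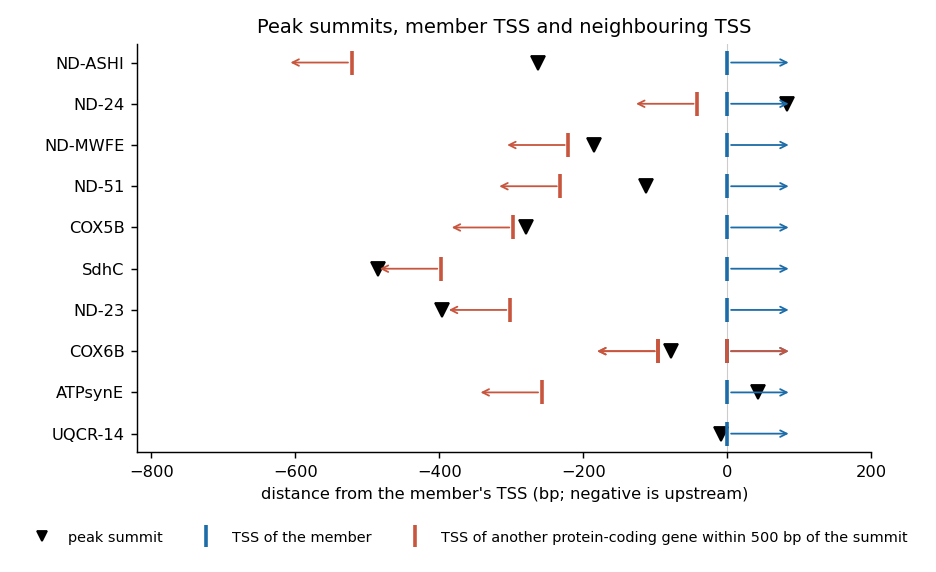
Position of the peak summit (triangle) relative to the member's TSS at 0 (horizontal axis, bp, negative is upstream) for the 10 members in a thresholded list, with the TSS of other protein-coding genes within 500 bp of the summit. Arrows give the direction of transcription, and UQCR-14 alone of the 10 has no such neighbour.

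Divergent gene pairs were also frequent among the members as a whole. A TSS head to head with another protein-coding TSS within 1000 bp was found for 44 of 88 members and for 36.2% of all protein-coding genes. All 6 members of the conservative list were among these 44 (13.6%), and none were among the other 44. Over all genes the shares with a peak were 18.4% of head-to-head genes and 7.21% of the rest. Of all genes with a conservative peak, 59.1% were head to head. Members were shorter, with a median of 1.10 kb against 2.16 kb for all genes. The median distance from a member's TSS to the nearest conservative summit was 8.12 kb against 12.6 kb. The part of gene arrangement in the counts was not tested.

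The ranked lists reach below the threshold and show how near the other members came. In the ranked list behind the conservative set, 74 of 88 members (84.1%) had a summit of any rank in the 500 bp window, against 82.8% of all genes. The other ranked lists reached 74 members for the optimal set against 82.8% of all genes, 68 for replicate 1 against 76.2% and 72 for replicate 2 against 78.3%. At an IDR of 0.05 or less the ranked list behind the conservative set held a peak at 15 members, or 17.0% (9.87 to 26.6%), against 17.7% of all genes. These 15 were 8 of complex I, 2 of complex II, 0 of complex III, 2 of complex IV and 3 of ATP synthase. The shares of members and of all genes were close at either depth of the list.

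The place of a gene's best peak, as a percent of the ranked list counted from the top, had a median of 23.7 for the 74 members (quartiles 5.56 and 47.7) and 21.4 for all 11564 genes with a ranked peak. In the replicates' own ranked lists the members' medians were 24.2 and 28.0 (26.1 ± 2.70, SD, n = 2), against 26 and 24 for all genes, so members were nearer the top in replicate 1 and lower in replicate 2. The order also turned within 250 bp (24.8 against 27.2), within 1000 bp (9.60 against 13.7) and by signal alone (15.4 against 19.1), so the members had no stable place relative to all genes. By complex the medians were 16.5 for complex I, 36.7 for complex II, 24.6 for complex III, 19.1 for complex IV and 22.2 for ATP synthase. Values within a complex spread widely, from 0.202 to 86.0 in complex I and from 1.52 to 58.5 in complex II.

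**Figure D4:**
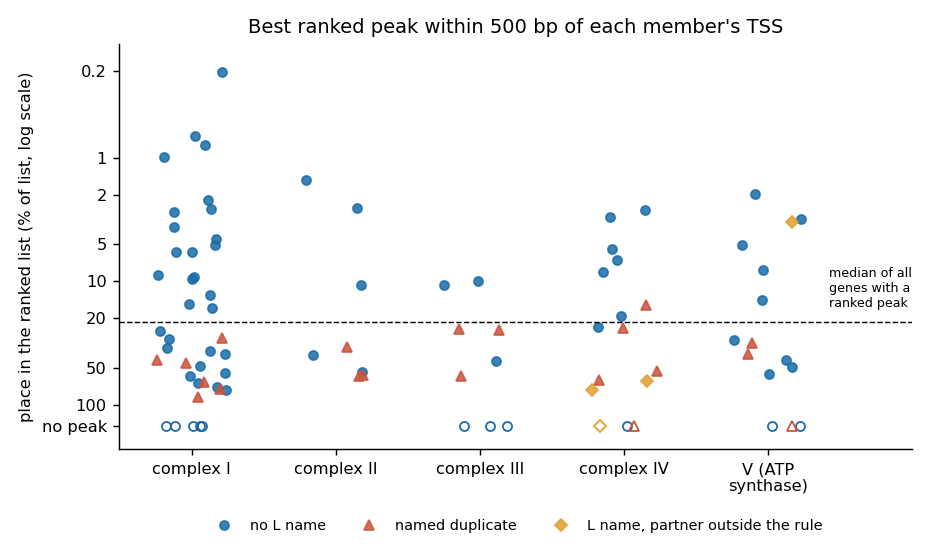
Place of the best ranked peak within 500 bp of each member's TSS (vertical axis, % of the ranked list behind the conservative set, log scale, strongest at the top), by complex, with members that had no such peak as open symbols. Named duplicates lie between 15.5 and 86.0, and the dashed line is the median of all genes with a ranked peak, 21.4.

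The next best members outside the thresholded lists were taken from the ranked list behind the conservative set. They were SdhA, ND-ACP, ND-B17, ATPsynC, ATPsynepsilonL, ND-13A, ND-B17.2, ATPsynCF6, ND-MNLL and COX5A. ND-ACP encodes the mitochondrial acyl carrier protein, a part of complex I, and had signals of 23.6 in replicate 1 and 28.6 in replicate 2 with an IDR of 0.0153. ATPsynC, the gene of the membrane ring subunit, had 24.7 and 23.9 with an IDR of 0.0242, 20 bp downstream of its TSS. COX5A had 17.7 and 27.7 with an IDR of 0.0727, its summit 33 bp downstream of its own TSS and 212 bp from that of glo, which runs the other way. At ND-B17 the peak in the ranked list of both had a signal of 15.6, with its summit 275 bp upstream of the TSS. The replicates' overlapping peaks had 31.0 and 23.0, with summits 97 and 209 bp upstream, so these values are not from the same summit. These places depended on the list. In the ranked list behind the optimal set the IDR was 0.610 at SdhA, 0.588 at ND-B17.2, 0.529 at ND-B17 and 0.174 at ND-ACP. There ATPsynCF6 had 0.133, ND-13A 0.0502, COX5A 0.0462, ATPsynC 0.0438, ATPsynepsilonL 0.0287 and ND-MNLL 0.0178. The best peak there had another summit at ND-B17, ND-B17.2 and ATPsynC, so for these genes different peaks are compared. At the rest the summit was the same in both lists. In the list behind the conservative set, 7 of the 10 summits were downstream of the TSS and 3 upstream. This split was not counted over all genes.

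Genes named as duplicates mostly ranked below the subunits they are named for. Of the 88 members, 20 have a symbol that equals that of another member plus L, with or without a digit, and 4 more are named in this way after a gene outside the rule. None of the 20 was in any thresholded list (interval 0 to 16.8%), against 10 of the 64 members without an L name. Over all genes the share was 13.7%, which lies inside the interval of the duplicates. In the conservative list alone 6 (9.38%) of the 64 had a peak, against 11.3% of all genes. In the ranked list behind the conservative set none of the 20 had an IDR of 0.05 or less, against 14 (21.9%) of the 64. Over all genes this share was 17.7%, inside the interval of the 64 (12.5 to 34.0%) and just above that of the 20 (0 to 16.8%). In replicate 2's own ranked list, which does not compare libraries, 1 of the 20 met this limit, ATPsynbetaL with an IDR of 0.0249. There 11.4% of all genes met it. The medians of rank place were 44.8 for 18 duplicates and 10 for 53 members without an L name, with 0% and 50.9% in the top 10% of the list, where 34.0% of all genes were found.

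Pairs were compared in the ranked list behind the conservative set. Both genes had a ranked peak there in 14 of 20 pairs, and the subunit gene was nearer the top in 13 of them. This order is by IDR. By signal the duplicate was higher at SdhBL (26.4 against 15.0), COX7AL (36.7 against 34.5) and ATPsynGL (25.2 against 17.8). ND-20 and ND-20L both had 14.3, and in the rest of the 14 the subunit gene was higher. The rank place was 0.664 for ND-24 and 45.8 for ND-24L, and 0.995 for ND-51 against 43.8 for ND-51L1 and 65.5 for ND-51L2. It was 2.57 for SdhA and 58.5 for SdhAL, and 1.52 for SdhC and 34.0 for SdhCL. ATPsynGL, at 31.6, was the 1 duplicate nearer the top in this list than its partner, ATPsynG at 49.2. Both this order and that of SdhA and SdhAL turned in the ranked list behind the optimal set. There ATPsynG was at 14.1 and ATPsynGL, with another summit, at 29.2, while SdhA was at 57.6 and SdhAL at 42.5. COX7AL was nearer the top than COX7A in replicate 1's own ranked list (5.25 against 7.48). In that of replicate 2 the duplicate was nearer at SdhBL (34.9 against 47.0) and ND-B14.5AL (31.7 against 56.4). In the 6 other pairs at least 1 gene had no ranked peak in the list behind the conservative set. ATPsynbetaL (38.6), ND-49L (86.0), UQCR-11L (58.8) and UQCR-6.4L (24.4) had one where the subunit gene had none, ATPsynCF6 had one where ATPsynCF6L had none, and neither COX4 nor COX4L had one. Pairs that share a partner are not independent of each other. Of the 4 other L-named genes, ATPsynepsilonL had an IDR of 0.0273 and the rest had none at or below 0.05.

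Duplicates also differed in where they lie. Only 3 of 20 (15.0%) stood head to head with a neighbour, against 40 of 64 (62.5%) of the members without an L name. Their median distance to the nearest conservative summit was 24.7 kb against 6.65 kb. Where copies are near-identical in sequence, reads are hard to place, and how far this touches these pairs was not tested.

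For 14 members the ranked list behind the conservative set held no summit within 500 bp of a TSS. They were ATPsynbeta, ATPsynD and ATPsynCF6L of ATP synthase, COX4, COX4L and COX6CL of complex IV, UQCR-C2, UQCR-6.4 and UQCR-11 of complex III, and ND-49, ND-30, ND-B14.7, ND-MLRQ and ND-AGGG of complex I. For 9 of them no ranked list held one. Several missed the window narrowly, as the nearest ranked summit was 528 bp from ND-B14.7, 563 bp from COX4 and 609 bp from ND-30. Others stood far from any, at 11.4 kb for ND-MLRQ and 42.5 kb for ND-49.

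ND-49 and ATPsynbeta are the 2 members on chromosome 4. There 6 of 80 protein-coding genes (7.50%) had a ranked peak, and the whole chromosome held 141 of the 141320 ranked peaks. ND-AGGG and UQCR-11, on arm 3L, lay 2097369 bp and 2241824 bp from the nearest conservative summit. A missing peak does not show absence of binding, since regions where reads map poorly yield no calls.

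Ranked summits of any IDR lay less often close to the TSS at the members than over all genes, and more often further out. Beyond 250 and up to 500 bp downstream of the most upstream TSS, 46.6% of members had a summit against 34.6% of all genes. Within 250 bp the shares were 26.1% against 32.8% downstream and 23.9% against 30.5% upstream, and beyond 250 bp upstream they were 31.8% against 25.6%. By complex the share in the outer downstream zone was 50% for complexes I and II, 22.2% for complex III, 31.2% for complex IV and 66.7% for ATP synthase, so complexes III and IV were below all genes. Most of these ranked peaks are weak, with a median signal of 25.8 in the same zone over all members, and the difference is a description over 88 genes with no test.

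**Figure D5:**
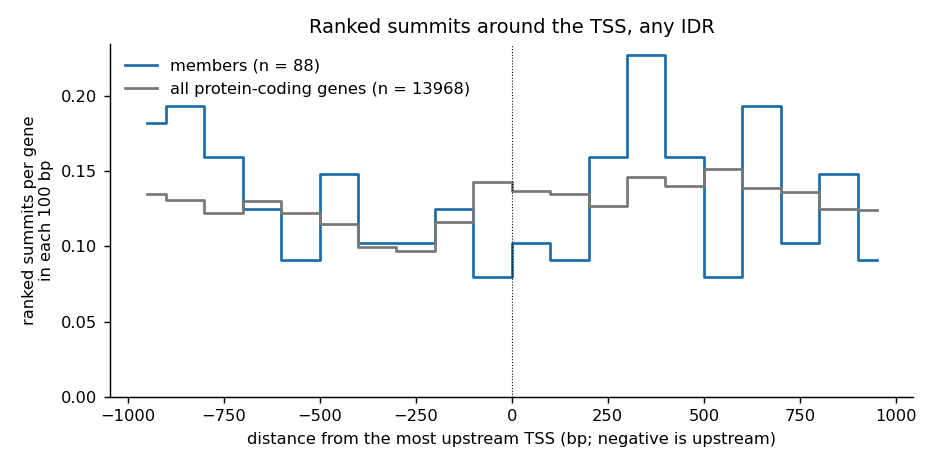
Ranked summits per gene in each 100 bp (vertical axis) by distance from the most upstream TSS (horizontal axis, bp, negative is upstream), for the 88 members and for all 13968 protein-coding genes. The members' line is highest at 300 to 400 bp downstream, at 0.227 summits per gene against 0.146.

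The replicates resembled each other at the members only in part. Overlapping peaks in both own ranked lists were found at 61 of the 74 members, with signals a median of 1.40-fold apart, over 2-fold at 9 members and 6.01-fold at most. The signal was higher in replicate 1 at 34 of them and in replicate 2 at 27. Across these genes the signals had a Pearson coefficient of 0.589 after log2 transformation and a Spearman coefficient of 0.589, which describe genes that share both libraries.

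Sequence words around the members' TSS differed from those of all genes in some cases. In the 300 bp promoter, from 250 bp before to 50 bp after the most upstream TSS, the core of the housekeeping promoter element Motif 1, GGTCACAC, was in 18.2% of members against 7.69% of all genes, with 23.4% of members without an L name and 5% of the duplicates. CAGCTG was in 23.9% against 17.6%. TATAAA was in 55.7% against 45.8%, but in 22.7% against 23.9% from 100 bp before to 50 bp after the TSS. The initiator word TCAGTT was in 13.6% against 26.1% and the GA repeat GAGAGAG in 1.14% against 5.86%. TATCGATA (10.2% against 9.36%) and CACGTG (4.55% against 4.2%) were about as frequent in this window. From 100 bp before to 50 bp after the TSS they were in 4.55% against 7.62% and 1.14% against 2.39%. GCATGCG, the core of the site of Erect wing and mammalian NRF-1, was in 0% against 2.27%, and the ETS-type word CCGGAAG in 0% against 1.09%. All words were searched on both strands, and the Motif 1 core was in none of the 10 member summit windows.

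A palindromic element has been described near the starts of fly nuclear genes for mitochondrial proteins. Its cores TTACGTAA, TTATGTAA and TTACATAA stood out when the window reached further downstream. Of these only TTACGTAA is itself a palindrome, and the others are reverse complements of each other. From 150 bp before to 150 bp after the TSS, 9 members (10.2%) held a core against 2.15% of all genes, whereas in the promoter window above the shares were 2.27% against 2.59%. Of the 9, 8 had the core downstream of the TSS, 7 belong to complex I and none is a duplicate. They are shown with the core in capitals and 11 bp on either side, on the member's strand, except ND-B14.7, whose core lay 65 bp downstream. The windows are chr3L:1330014-1330043 (ND-ACP, plus strand), chr3L:3159512-3159541 (ND-30, minus strand), chrX:15986731-15986760 (ND-20, minus strand), chrX:19492468-19492497 (ND-18, plus strand), chrX:7893866-7893895 (ND-MNLL, minus strand), chr4:571520-571549 (ND-49, minus strand), chrX:16286388-16286417 (UQCR-14, plus strand), chr3R:29749055-29749084 (ATPsyngamma, minus strand).
ND-ACP: ctccagcacttTTACATAAtcttgaaaact
ND-30: acattttagcaTTACATAAattgtcaaaaa
ND-20: ataagttgaagTTACATAAataggtattaa
ND-18: tgttccaaattTTACGTAAttcgtattttg
ND-MNLL: ttttttttgaaTTACATAAaatattgctac
ND-49: tagcagaaccaTTATGTAAgttcctagtaa
UQCR-14: gacttctgattTTACGTAAaccatgtcgaa
ATPsyngamma: ataattatgagTTACATAAattcaaattaa

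Genes with this core did not rank together for CG5953-eGFP. The core began 76 bp downstream of the TSS in ND-ACP, whose rank place was 2.60, and 111 bp downstream in UQCR-14, at 10. ND-MNLL, with its core 86 bp upstream, was at 5.13, whereas ND-20 was at 39.0, ATPsyngamma at 43.3 and ND-18 at 58.1. ND-30, ND-49 and ND-B14.7 had no ranked peak within 500 bp. UQCR-14 was the 1 of the 9 in a thresholded list. None of the 10 member summit windows held a core, against 1.53% of the conservative summit windows.

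Peaks were also counted at 37 other genes of energy metabolism. In the conservative list 9 of 37 (24.3%) had a summit within 500 bp, beside the 11.3% of all genes and the members' 6.82%. Of 13 further respiratory genes 4 had one: blw, the gene of ATP synthase subunit alpha (signal 139), levy and cype, genes of the COX6A and COX6C type (112 and 60.1), and Cyt-c-d, a cytochrome c gene (306). The summit at Cyt-c-d was nearer to CG31808, and that at levy nearer to wmd. Adding these 13 to the 88 members gives 10 of 101 (9.90%) in the conservative list. The list was chosen with earlier results of these data known, so its share supports no statement about the pathway.

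Of 14 citric acid cycle genes 4 were in the conservative list (28.6%, interval 8.39 to 58.1%), where all genes had 11.3%. They were Fum1, which shares its peak with ND-ASHI, and Idh3g, Ogdh and Idh3b, with signals of 203, 85.6 and 58.7, the first and last for subunits of the mitochondrial isocitrate dehydrogenase. Pdhb was added by the optimal list and mAcon1 by replicate 1's own list. Of 10 regulators of respiratory genes, 1 was in the conservative list: ERR, the estrogen-related receptor, a nuclear receptor of energy metabolism (signal 74.9; 32.2 in replicate 1 and 36.7 in replicate 2). Mitochondrial ribosomal protein genes, another nuclear family for the organelle, had a peak at 11 of 73 (15.1%, interval 7.77 to 25.4%). The 11.3% of all genes lies inside the intervals of the citric acid cycle genes, the regulators (0.253 to 44.5%) and this family. These shares were not tested against that of the members.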

How the data were processed

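The study measured ChIP-seq of CG5953-eGFP in 2 libraries of 1 group. The files are peak lists on dm6, per the labels. Per the labels, chromatin was sonicated to 200 to 800 bp, which limits how finely a summit is placed. In each list the authors deposited a signal value per peak, of unstated unit, a score that rescales the IDR up to 1000, with 830 the lowest in the thresholded lists, and, in the ranked lists, the −log10 of the global IDR. The conservative peaks had an IDR of 0.01 or less, and 84 ranked peaks within that limit were not in the list. The ranked list behind each set was found by containment of its peaks. For the aligner and the peak caller, no name was given in the sources used. Library depth is unknown because the lists carry no read numbers, and intervals cover the number of genes counted only. Control libraries were not analysed here.

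Summits were joined to TSS of Ensembl release 115 (BDGP6) with Python 3.11.15, numpy 2.4.6, pandas 2.3.3 and scipy 1.17.1, and plotted with matplotlib 3.10.9. Sequences were read from the NCBI Release 6 genome, where 99.8% of 30618 annotated start codons read ATG. Of several ranked peaks near a gene, the one with the smallest IDR, then the highest signal, was taken. A replicate's signal is that of the strongest overlapping peak in its own ranked list. With 1 group there was no comparison between conditions, and no p-value was computed. The scripts were checked on simulated data.

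Members, lists and words were chosen with earlier results of these data known. The text names members in any thresholded list, the 10 others with the smallest IDR, members without a ranked peak, genes sharing a summit, and bound genes of the list of other pathway genes. Genes used as examples beyond this, and the core subunits of complex I, were chosen after their values were seen. Alternatives were the window, list, nearest TSS, overlap, signal minimum, leaving out a replicate and the promoter window.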

Additional observations from a re-analysis of the deposited data

How the results depend on the processing

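The count of 6 members fell to 4 within 250 bp and rose to 8 within 1000 bp, while all genes went to 8.73% and 13.8%. It was 3 by the nearest TSS and 15 at an IDR of 0.05 or less, and 4 to 5 with 1 library left out. Complex I (4) gave 2 by the nearest TSS and 8 at the wider IDR, and members without an L name (6) gave 3 and 14; of other L-named genes 1 passed at the wider IDR. Complex II (1) gave 0 within 250 bp, by nearest TSS, by overlap and at or over the median signal, 2 within 1000 bp and at the wider IDR, and 0 to 0 without either library. Complex III (0) gave 1 in the optimal list, and complex IV (0) gave 2 in the optimal list, 2 at the wider IDR and 0 to 1 without a library. ATP synthase (1) gave 2 within 1000 bp, 3 at the wider IDR, and 0 in the optimal list, at or over the median signal and without either library (0 to 0). The duplicates had 0 in each of these settings, and 1 at the wider IDR in replicate 2's own ranked list. Single peaks thus decide the counts of complexes II to V.

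The median rank place (23.7) was 9.60 within 1000 bp and 15.4 by signal alone, where all genes had 13.7 and 19.1; within 250 bp it was 24.8 against 27.2, so members and all genes changed order. Without a library, a setting chosen after seeing the data, it was 24.2 to 28.0. From 150 bp before to 150 bp after the TSS, CACGTG was in 1.14% of members (all genes 4.2%) and TATAAA in 42.0% (40%). A TTACGTAA, TTATGTAA or TTACATAA core was in 10.2% (2.15%). From 100 bp before to 50 bp after, CACGTG was in 1.14% (all genes 2.39%), TATAAA in 22.7% (23.9%), TATCGATA in 4.55% (7.62%) and GAGAGAG in 0% (3.26%). The member excess of TATAAA was therefore small or absent outside the main window. The Motif 1 core stayed above all genes in both (18.2% against 7.39% and 14.8% against 6.59%). No paired analysis was possible because there was only 1 group. The unknown depth and the lack of analysed controls limit how far weak peaks can be told from background.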
